A study of Mus musculus with 88 samples.

Results

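The angiogenesis genes followed here, in mouse cortex after a focal brain injury, are Aplnr, Apln, Tek, Angpt1, Angpt2, Kdr, Flt1, Pgf, Dll4 and Esm1. All 10 were found by symbol among the 54532 genes of the count table. They were chosen by name as genes of sprouting vessels, and in part by the counts of Aplnr, which stood much higher at 72 h than at 24 h on the injured side. That contrast is therefore described with no test. C57BL/6 mice of both sexes, 8 to 9 weeks old, received a unilateral controlled cortical impact over the right somatosensory cortex, in which a piston strikes the exposed brain through a craniotomy. Punches of 4 mm were taken 24 h or 72 h later from the injured (ipsilateral) and the opposite (contralateral) cortex of each perfused animal. Naive mice were the uninjured controls, and their right punch is called ipsilateral by the labels. Injured mice also had anaesthesia, the craniotomy and 0.05 mg/kg buprenorphine, an opioid analgesic. There was no sham group in the samples used here, so the impact, the surgery and the drug cannot be told apart.

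The groups held 15 ipsilateral and 16 contralateral libraries at 72 h, 15 and 15 at 24 h, and 13 and 13 in naive mice. Each library came from 1 punch of 1 animal, and every animal gave both sides. Library totals, in units of 1000000 counts, ranged from 10.6 to 26.36, with a median of 16.25. Levels are given as CPM, counts per 1000000 of the scaled library total. Both libraries of 1 female at 72 h, LF3, lay farthest from their groups over all genes and had the highest share of mitochondrial counts in the ipsilateral punch (10.48%). The ipsilateral library labelled PF1, a 72 h female, held male transcripts (Xist 0.107 CPM, Ddx3y 57.2 CPM), against 485.6 and 0 CPM in the contralateral library of that animal. The ipsilateral library labelled PM1, a 72 h male whose labels disagree on sex, held female ones (Xist 453.8 CPM, Ddx3y 0 CPM), against 0.189 and 57.8 CPM in its contralateral library. Whether the 2 ipsilateral libraries were exchanged cannot be told from the labels; if they were, the punches paired as PF1 come from different animals. PF1 was kept as labelled, PM1 ipsilateral entered no comparison, and without PF1 the side comparison at 72 h called the same number of the 10 genes (9). Libraries came in 3 batches: A held naive and 24 h mice, B held all times, and C held 72 h mice only.

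New vessels form when endothelial cells, the cells that line vessels, respond to growth factors of the VEGF family through the receptor VEGFR2 (Kdr). Leading cells of a sprout, called tip cells, carry the Notch ligand DLL4, which restrains sprouting in their neighbours. Endocan (Esm1) and apelin (Apln) are used as tip cell markers in mouse vessels, and apelin acts through a G protein-coupled receptor, APJ (Aplnr). The receptor TIE2 (Tek) is held active by angiopoietin-1 (Angpt1), made largely by cells around the vessel. Angiopoietin-2 (Angpt2), released by endothelial cells, can oppose it and loosen the vessel wall. VEGFR1 (Flt1) binds VEGF and placental growth factor (Pgf) and can act as a decoy for VEGF. In bulk tissue, fewer cells of a type and less RNA per cell cannot be told apart.

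Promoter sequence is shown for 3 genes that rose by 24 h and for 2 that were higher at 72 h, as the stretches next to which these transcripts start. RefSeq (GRCm38.p6) gave the 250 bases before its annotated start for 7 of the 10 genes. Each is printed on the gene's own strand, and for Pgf, which has 2 starts in the table, the upstream one is shown. RefSeq starts can differ from the gene bounds given further on, which are from GENCODE. The Pgf stretch lies within those bounds, and that of Kdr runs into them by a few bases. Capitals mark the core of the hypoxia response element, GCGTG or ACGTG on either strand, where a match on the opposite strand reads CACGC or CACGT.
Dll4, chr2:119325534-119325783, plus strand: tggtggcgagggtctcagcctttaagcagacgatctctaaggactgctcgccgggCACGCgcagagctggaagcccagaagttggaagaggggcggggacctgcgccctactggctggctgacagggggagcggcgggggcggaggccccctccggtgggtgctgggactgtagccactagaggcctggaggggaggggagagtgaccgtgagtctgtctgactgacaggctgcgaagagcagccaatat
Pgf, chr12:85177314-85177563, minus strand: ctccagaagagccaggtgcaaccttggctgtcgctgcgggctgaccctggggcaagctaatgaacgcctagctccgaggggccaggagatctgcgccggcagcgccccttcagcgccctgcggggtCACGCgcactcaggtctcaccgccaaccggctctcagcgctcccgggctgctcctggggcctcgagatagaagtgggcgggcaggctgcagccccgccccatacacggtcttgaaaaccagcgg
Esm1, chr13:113209409-113209658, plus strand: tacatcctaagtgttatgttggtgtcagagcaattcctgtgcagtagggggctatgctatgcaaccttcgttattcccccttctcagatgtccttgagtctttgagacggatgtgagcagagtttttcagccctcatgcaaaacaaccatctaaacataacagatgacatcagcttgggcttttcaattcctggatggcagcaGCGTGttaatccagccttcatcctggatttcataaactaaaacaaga
Kdr, chr5:75978456-75978705, minus strand: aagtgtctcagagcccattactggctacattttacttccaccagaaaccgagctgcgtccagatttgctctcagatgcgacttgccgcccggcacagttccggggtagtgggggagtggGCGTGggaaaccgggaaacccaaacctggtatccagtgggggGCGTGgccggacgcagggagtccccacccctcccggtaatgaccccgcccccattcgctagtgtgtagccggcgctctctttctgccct
Tek, chr4:94739039-94739288, plus strand: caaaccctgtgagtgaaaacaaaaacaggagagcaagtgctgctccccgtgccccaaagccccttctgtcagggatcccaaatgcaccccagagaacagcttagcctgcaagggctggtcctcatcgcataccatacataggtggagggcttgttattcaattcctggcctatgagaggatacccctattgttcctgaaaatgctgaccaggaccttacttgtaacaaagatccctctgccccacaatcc
GCGTG stood once in the Dll4, Pgf and Esm1 stretches and 2 times in that of Kdr, and neither core stood in that of Tek. Among the stretches not printed, that of Flt1, which passed the test at neither time, held GCGTG once, and those of Apln and of the second Pgf start held neither core. Of 32851 mouse promoters of this length, 28.2% held GCGTG, 16.6% ACGTG and 38.6% at least one of them. The motifs can share bases where they meet. The ETS core CCGGAA, found in 12.0% of promoters, stood once in the Kdr stretch and in none of the other 4. The AP-1 motif TGACTCA, found in 4.46%, stood in none of the 5. Aplnr, Angpt1 and Angpt2 had no entry in the promoter table.

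On the injured side the 10 genes moved at different times. At 24 h, Angpt2, Pgf, Dll4 and Esm1 were above naive and Tek was below it. At 72 h, Angpt1, Kdr and Tek were above naive as well, Angpt2, Pgf and Dll4 were still above it, and Aplnr had gone far beyond its naive range. Flt1 passed the test at neither time, and Apln at neither time on that side. Calls are from edgeR's quasi-likelihood test, at a Benjamini-Hochberg adjusted p under 0.05 over all genes. At 24 h against naive, 4 of the 9 genes other than Aplnr rose and 1 fell. Esm1 was among the 4 through its counts in injured punches alone. Of all 19126 genes tested, 22.9% rose and 20.1% fell, 43.0% in all. At 72 h, 6 of the 9 genes other than Aplnr rose and none fell, while 27.8% of all genes rose and 20.7% fell, 48.5% in all. The median log2 fold change of the 9 genes other than Aplnr was 0.40 at 24 h, against 0.006 over all genes tested. At 72 h the median of the 9 genes other than Aplnr was 1.21, against 0.06 over all genes. Both medians include Esm1, with the limit just given.

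**Figure D1:**
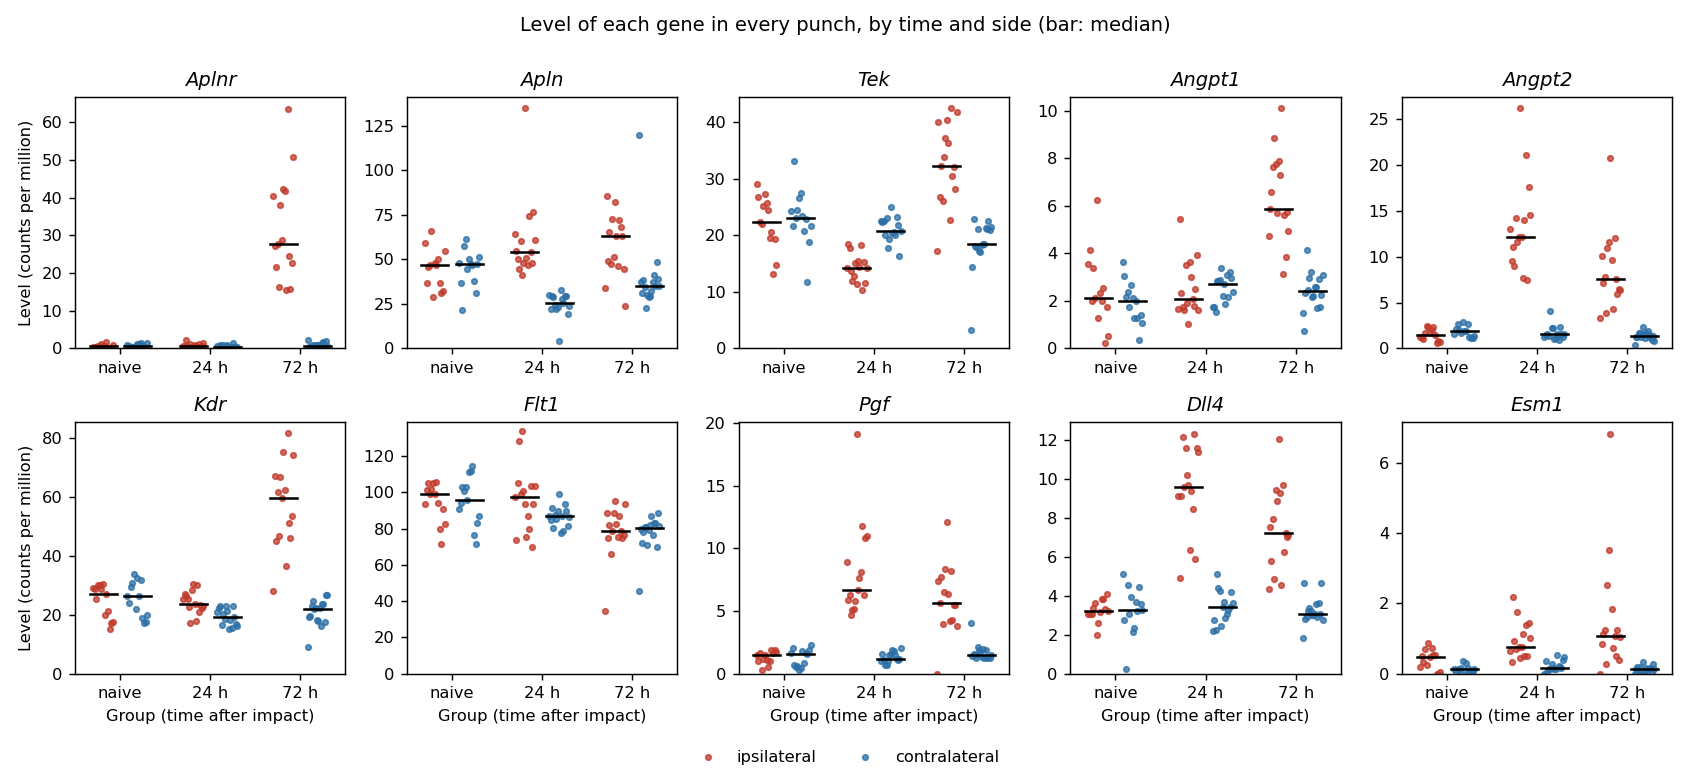
Level in CPM (y axis, linear, from 0) of each of the 10 genes in every assigned punch, by group on the x axis (naive, 24 h and 72 h), with ipsilateral punches in red left of contralateral punches in blue and black bars at the medians. Aplnr lies between 15.5 and 63.6 CPM ipsilaterally at 72 h and at most 2.23 CPM in every other group, whereas Angpt2, Pgf and Dll4 stand highest at 24 h.

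Aplnr, the apelin receptor (ENSMUSG00000044338, chr2:85136225-85139923, plus strand, GRCm38), was low in naive cortex and at 24 h. Naive ipsilateral punches had a lowest, median and highest level of 0.119, 0.628 and 1.78 CPM. The punches at 24 h had 0.170, 0.544 and 2.23 CPM. Those at 72 h had 15.5, 27.6 and 63.6 CPM, so the lowest punch at 72 h was above the highest punch of both other groups. Reads behind these values numbered 135 over 13 naive punches, 201 over 15 punches at 24 h, and 8169 over 15 punches at 72 h. At 24 h the change from naive was small (log2 fold change 0.34 ± 0.36 SE). At 72 h the log2 difference was 5.74 ± 0.44 SE from naive, a 53.4-fold higher level, and 5.40 ± 0.37 SE from 24 h. Since the 24 h and 72 h libraries served to choose this gene, no p-value is attached to any of these changes. The 72 h difference from naive was 5.54 without LF3, 5.83 without PF1 and 6.50 in batch B alone, the batch that holds all times. TF1, a female, had the highest level of Aplnr at 72 h, and SM2, a male, the lowest.

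Apln, its ligand apelin (ENSMUSG00000037010, chrX:48025146-48034853, minus strand), was abundant already in naive cortex. In naive ipsilateral punches Apln had a lowest, median and highest level of 28.9, 46.8 and 66.0 CPM. The values at 24 h were 41.0, 53.8 and 134.7 CPM. By 72 h they stood at 24.0, 63.1 and 85.7 CPM. The groups overlapped, with 3 punches at 24 h and 5 at 72 h above the highest naive punch. Its log2 fold change was 0.40 ± 0.17 SE at 24 h (adjusted p = 0.056) and 0.24 ± 0.26 SE at 72 h (adjusted p = 0.455). The 24 h value lay close to the threshold and passed it with DESeq2 (adjusted p = 0.0371), without LF3 (adjusted p = 0.0428), without the batch term (adjusted p = 0.0265) and without the filter on low counts (adjusted p = 0.0493).

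Tek, the receptor for both angiopoietins (ENSMUSG00000006386, chr4:94739289-94874976, plus strand), moved down and then up. Tek levels in ipsilateral punches, as lowest, median and highest, were 13.1, 22.4 and 29.0 CPM in naive mice. After 24 h the values were 10.3, 14.3 and 18.5 CPM. After 72 h they were 17.2, 32.2 and 42.5 CPM. Tek fell at 24 h (log2 fold change -0.56 ± 0.11 SE, adjusted p = 7.54e-05), with 5 of 15 punches under the lowest naive punch. At 72 h it was higher than in naive mice (0.56 ± 0.17 SE, adjusted p = 0.005), with 10 of 15 punches over the highest naive punch. Between the 2 injured groups 14 of 15 punches at 72 h lay above the highest punch at 24 h; the exception was LF3. Within batches the 24 h value was -0.71 ± 0.11 SE in batch A (adjusted p = 2.64e-05) and -0.31 ± 0.20 SE in batch B (adjusted p = 0.281).

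Angpt2, the angiopoietin that can oppose Tie2 signalling (ENSMUSG00000031465, chr8:18690263-18741562, minus strand), rose most at 24 h among the 10 genes. Naive ipsilateral punches had a lowest, median and highest level of 0.596, 1.46 and 2.45 CPM. The punches at 24 h had 7.49, 12.1 and 26.2 CPM. Those at 72 h had 3.32, 7.54 and 20.7 CPM. Every injured punch at both times was above the highest naive punch, and the ranges of 24 h and 72 h overlapped. The log2 fold change from naive was 3.16 ± 0.25 SE at 24 h (8.95-fold, adjusted p = 1.17e-13) and 2.10 ± 0.35 SE at 72 h (4.29-fold, adjusted p = 4.22e-06). The female QF1 at 24 h and the female SF3 at 72 h had the highest values. The gene lies within Mcph1 on the opposite strand and shares no exon base with it. Whether counting used strand is not given in the sources used here. Mcph1 itself stood at a median of 12.7 CPM at 72 h, 12.4 CPM at 24 h and 12.2 CPM in naive mice. Whether reads from the opposite strand add to Angpt2 was not tested.

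Angpt1, the angiopoietin that activates Tie2 (ENSMUSG00000022309, chr15:42424723-42676977, minus strand), followed later. In naive ipsilateral punches Angpt1 had a lowest, median and highest level of 0.238, 2.14 and 6.27 CPM. The values at 24 h were 1.02, 2.09 and 5.46 CPM. By 72 h they stood at 3.13, 5.88 and 10.1 CPM. It did not pass at 24 h (0.22 ± 0.28 SE, adjusted p = 0.579) and rose at 72 h (1.91 ± 0.41 SE, 3.76-fold, adjusted p = 0.000177). The ranges of naive and 72 h overlapped, with 7 of 15 punches over the highest naive punch, which was the male EM3. Angpt1 shares 737 exon bases with the antisense gene Gm17473, which stood at a median of 0 CPM at 72 h, and reads of the pair cannot be told apart where strand was not used. Per kilobase of exon, the medians at 24 h were 3.28 CPM for Angpt2 and 0.402 CPM for Angpt1.

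Kdr, which encodes VEGFR2 (ENSMUSG00000062960, chr5:75932827-75978458, minus strand), showed the late pattern too. Kdr levels in ipsilateral punches, as lowest, median and highest, were 15.2, 27.2 and 30.3 CPM in naive mice. After 24 h the values were 17.2, 23.7 and 30.5 CPM. After 72 h they were 28.2, 59.7 and 81.9 CPM. The gene did not pass at 24 h (0.07 ± 0.12 SE, adjusted p = 0.7) and rose at 72 h (1.22 ± 0.18 SE, 2.34-fold, adjusted p = 4.51e-07). At 72 h 14 of 15 punches were above every naive punch, and LF3 was the one that was not.

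Flt1, the VEGF decoy and Pgf receptor (ENSMUSG00000029648, chr5:147561604-147726011, minus strand), passed the test at neither time. Naive ipsilateral punches had a lowest, median and highest level of 71.4, 98.8 and 105.7 CPM. The punches at 24 h had 69.8, 97.5 and 133.8 CPM. Those at 72 h had 34.6, 78.8 and 95.1 CPM. Its log2 fold change was 0.08 ± 0.09 SE at 24 h (adjusted p = 0.483) and -0.26 ± 0.13 SE at 72 h (adjusted p = 0.114). Without LF3, the lowest punch at 72 h, the 72 h value was -0.11 (adjusted p = 0.424). Naive punches of batch A (93.6 to 105.7 CPM) did not overlap those of batch B (71.4 to 90.6 CPM), and batch was a term in the fit. Without the batch term Flt1 fell at 72 h (-0.26, adjusted p = 0.018).

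Pgf, a VEGF family ligand that binds Flt1 and not Kdr (ENSMUSG00000004791, chr12:85166635-85177790, minus strand), rose early like Angpt2. In naive ipsilateral punches Pgf had a lowest, median and highest level of 0.313, 1.48 and 1.93 CPM. The values at 24 h were 4.72, 6.68 and 19.1 CPM. By 72 h they stood at 0, 5.67 and 12.1 CPM. All 15 punches at 24 h and 14 of 15 at 72 h lay above the highest naive punch, and the punch of LF3 held no Pgf read. The log2 fold change was 2.48 ± 0.27 SE at 24 h (5.57-fold, adjusted p = 4.05e-10) and 1.46 ± 0.37 SE at 72 h (2.75-fold, adjusted p = 0.00131). Without LF3 the 72 h value was 1.74 (adjusted p = 1.78e-06). In batch B alone it was 1.49 ± 0.61 SE and did not pass (adjusted p = 0.0739).

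Dll4, the Notch ligand of tip cells and arteries (ENSMUSG00000027314, chr2:119325784-119335962, plus strand), had the same order of groups. Dll4 levels in ipsilateral punches, as lowest, median and highest, were 1.98, 3.23 and 4.10 CPM in naive mice. After 24 h the values were 4.90, 9.60 and 12.3 CPM. After 72 h they were 4.34, 7.23 and 12.1 CPM. No injured punch overlapped the naive range at either time. The log2 fold change was 1.51 ± 0.14 SE at 24 h (2.84-fold, adjusted p = 7.59e-12) and 0.83 ± 0.21 SE at 72 h (1.77-fold, adjusted p = 0.000961). It held within batches at 24 h, with 1.60 in batch A (adjusted p = 4.59e-07) and 1.35 in batch B (adjusted p = 0.000938), and in batch B at 72 h (0.74, adjusted p = 0.0348). Dll4 shares 214 exon bases with Gm14207, whose median did not exceed 0.296 CPM ipsilaterally.

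Esm1, which encodes endocan (ENSMUSG00000042379, chr13:113209659-113218098, plus strand), had the lowest median of the 10 per kilobase of exon at 72 h. Naive ipsilateral punches had a lowest, median and highest level of 0, 0.468 and 0.886 CPM. The punches at 24 h had 0.334, 0.763 and 2.17 CPM. Those at 72 h had 0, 1.06 and 6.82 CPM. These rest on 84 reads over 13 naive punches, 255 over 15 punches at 24 h and 408 over 15 punches at 72 h. Of those 408 reads, 119 came from SF3. With 0 to 14 reads per naive punch, Esm1 entered the ipsilateral comparison through its counts in injured punches, so its call there supports nothing about the set. Esm1 rose at 24 h (1.43 ± 0.44 SE, adjusted p = 0.00749), but in batch A alone the value was 0.87 (adjusted p = 0.0838) and in females alone 0.90 (adjusted p = 0.284). At 72 h it did not pass (1.21 ± 0.66 SE, adjusted p = 0.128), although 9 of 15 punches were over the highest naive punch; it passed in batch B alone (2.76, adjusted p = 0.0414) and without the batch term (1.73, adjusted p = 0.000802). Esm1 lies within Gzmk on the opposite strand with no shared exon base, and Gzmk had a median of 0.163 CPM at 72 h.

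**Figure D2:**
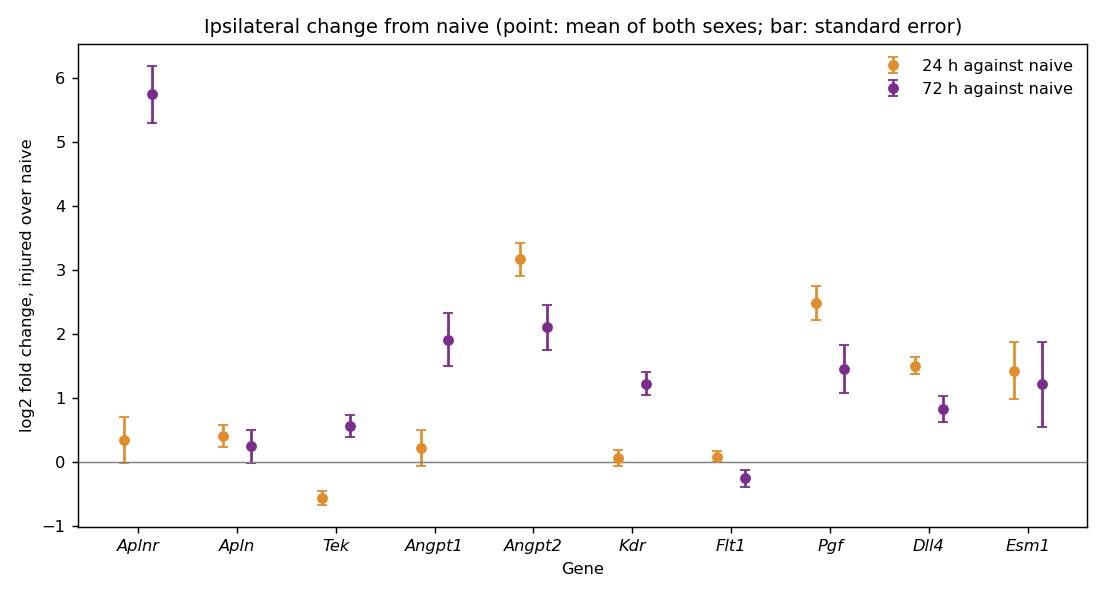
Log2 fold change from naive on the injured side (y axis) for each gene (x axis), at 24 h in orange and 72 h in purple; points are the mean of the female and male changes and bars are standard errors. Angpt2, Pgf and Dll4 are higher at 24 h (3.16, 2.48 and 1.51) than at 72 h (2.10, 1.46 and 0.83), while Aplnr, Angpt1, Kdr and Tek are higher at 72 h.

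Set directly against each other, 72 h and 24 h ipsilateral punches differed in both directions. Beside Aplnr, the log2 difference was 1.69 ± 0.35 SE for Angpt1, 1.16 ± 0.16 SE for Kdr and 1.12 ± 0.15 SE for Tek. It was -1.06 ± 0.31 SE for Angpt2, -1.02 ± 0.35 SE for Pgf and -0.68 ± 0.20 SE for Dll4. Flt1 stood at -0.34 ± 0.13 SE, Esm1 at -0.21 ± 0.58 SE and Apln at -0.16 ± 0.23 SE. In this contrast, given without a test, 4 of the 10 genes had a positive value, and the median over all genes was 0.009. The same 4 were positive in batch B alone, where Aplnr stood at 5.15, Angpt1 at 1.49, Kdr at 1.08 and Tek at 1.07. Batch B is a part of the same libraries, so it is no separate support.

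On the uninjured side Apln was the one gene of the set that passed a test. Esm1 was too low there to pass the filter on counts, so 9 genes were tested among 18436. At 24 h against naive only Apln passed and it fell (log2 fold change -0.82 ± 0.20 SE, adjusted p = 0.0144), beside 2.10% of all genes called, 0.819% higher and 1.29% lower. Its lowest, median and highest contralateral levels were 21.5, 47.1 and 61.5 CPM in naive mice, 4.18, 25.6 and 32.7 CPM at 24 h, and 22.5, 35.0 and 119.8 CPM at 72 h. Of the 15 punches at 24 h, 2 lay under the lowest naive punch. In batch A alone the 24 h value was -0.82 (adjusted p = 0.0108) and in batch B alone -0.74 (adjusted p = 0.522). In batch A, Kdr (-0.48, adjusted p = 0.024) and Flt1 (-0.26, adjusted p = 0.0394) passed as well, while both had positive values in batch B.

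At 72 h against 24 h contralaterally, Apln was higher (0.96 ± 0.26 SE, adjusted p = 0.0185) and was the only one of the 9 genes that passed, beside 9.21% of all genes, 8.41% higher and 0.803% lower. This call rested on LF3, whose contralateral punch held 119.8 CPM; without it the value was 0.46 (adjusted p = 0.666) and 45 genes were called in place of 1698. At 72 h against naive none of the 9 genes passed (edgeR; 1 at an unadjusted p under 0.05, Flt1 at -0.28 ± 0.09 SE, and 0 with DESeq2), beside 0.260% of all genes (0.0163% lower). Aplnr had lowest, median and highest contralateral levels of 0.234, 0.675 and 1.54 CPM in naive mice, 0.250, 0.502 and 1.31 CPM at 24 h, and 0.0618, 0.743 and 2.21 CPM at 72 h. Its contralateral ranges overlapped throughout, and the highest value was from LF3. Of the partner genes described further on, Tie1 fell (-0.38 ± 0.07 SE, adjusted p = 0.000915) and Vegfd rose (0.87 ± 0.20 SE, adjusted p = 0.0101) contralaterally at 24 h, and Mki67 rose at 72 h (2.32 ± 0.43 SE, adjusted p = 0.00852). Among markers of other cells there, 1 of 8 monocyte and macrophage markers tested rose at 24 h, Ccr2 (1.61 ± 0.35 SE, adjusted p = 0.00693), and 2 of 8 at 72 h, Cd68 (0.95 ± 0.14 SE, adjusted p = 9.27e-05) and Lyz2 (0.90 ± 0.19 SE, adjusted p = 0.0169). The astrocyte marker S100b (-0.28 ± 0.08 SE, adjusted p = 0.036) and the pericyte marker Vtn (-0.30 ± 0.08 SE, adjusted p = 0.0254) fell at 24 h, 1 of 7 and 1 of 9 in their lists. The fibroblast marker Col1a1 rose at 72 h (1.34 ± 0.26 SE, adjusted p = 0.0129), 1 of 8, and none of the 9 endothelial or 7 neuron markers passed at either time (edgeR).

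**Figure D3:**
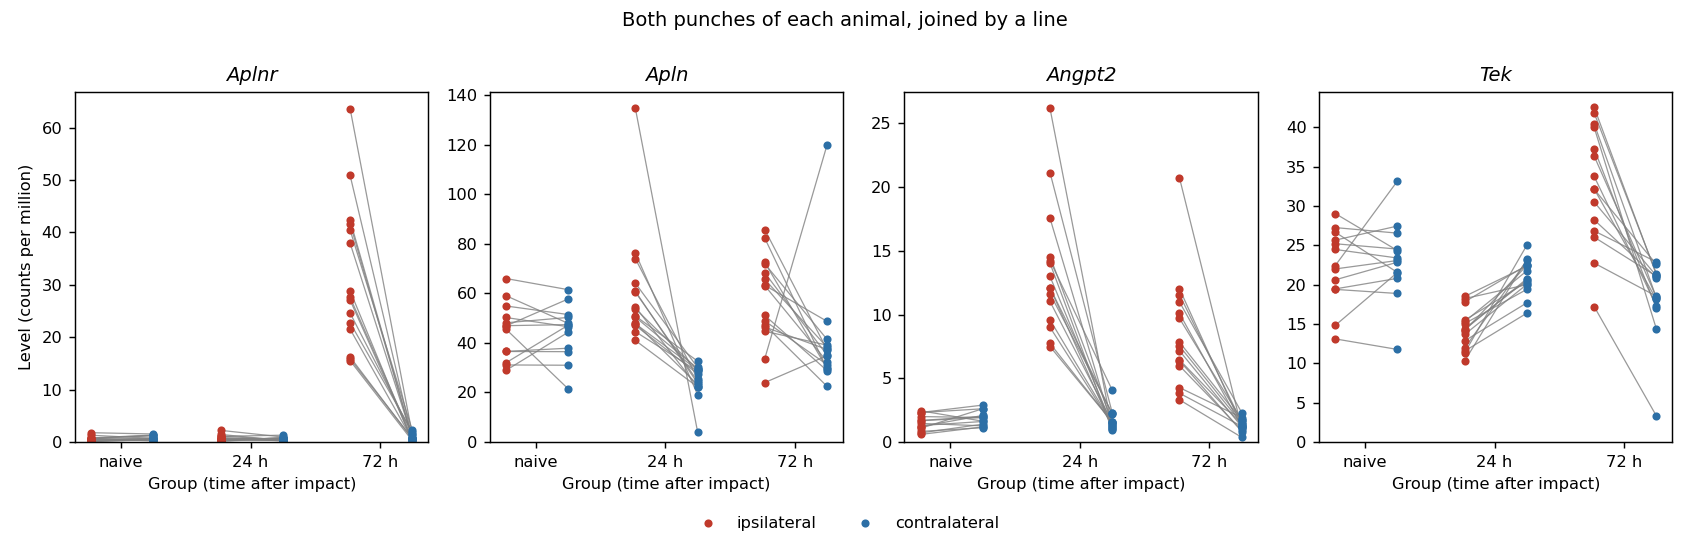
Level in CPM (y axis, linear, from 0) of Aplnr, Apln, Angpt2 and Tek in the ipsilateral (red, left) and contralateral (blue, right) punch of each animal, joined by a line, for naive, 24 h and 72 h mice on the x axis. Tek lines rise to the contralateral side in 15 of 15 animals at 24 h and fall in 15 of 15 at 72 h, and the 2 Apln lines that run upward at 72 h include LF3.

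Within animals, both punches were compared with the animal as a block over 43 animals and 19946 genes. In naive mice none of the 10 genes passed for right against left (edgeR, adjusted p of 1 for each; 1 at an unadjusted p under 0.05 and 0 with DESeq2), and no other gene passed either. The 1 was Esm1, which was higher in the right punch in 10 of 13 naive mice (1.42 ± 0.45 SE). It rested on 84 right and 28 left reads, and the limit on Esm1 given below holds here too. At 24 h 47.7% of all genes were called in either direction, 23.7% higher and 24.1% lower. Of the 9 genes other than Aplnr, 6 were higher ipsilaterally and 1 was lower. They include Angpt2 (2.99 ± 0.17 SE), Pgf (2.58 ± 0.24 SE), Dll4 (1.45 ± 0.14 SE), Apln (1.24 ± 0.20 SE) and Kdr (0.32 ± 0.07 SE), with adjusted p from 6.14e-20 to 0.000269. The remaining one, Esm1, did not pass the count filter in contralateral punches alone and entered this comparison through its ipsilateral counts, so its side differences are given as values and support nothing. It held 255 ipsilateral and 55 contralateral reads at 24 h (2.06 ± 0.35 SE), and 408 ipsilateral and 32 contralateral reads at 72 h (3.18 ± 0.39 SE), where 119 of the ipsilateral reads came from SF3. Angpt2, Pgf, Dll4 and Apln were each higher ipsilaterally in 15 of 15 animals, Esm1 in 14 and Kdr in 12. Tek was lower ipsilaterally in 15 of 15 animals (-0.57 ± 0.09 SE, adjusted p = 1.52e-06).

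At 72 h 8 of the 9 genes other than Aplnr were higher ipsilaterally, beside 61.7% of all genes called in either direction with 31.1% called higher and 30.6% lower. Esm1 is one of the 8, with the limit just given. Angpt2 was higher by 2.52 ± 0.17 SE (adjusted p = 3.95e-17). Kdr (1.43 ± 0.07 SE), Angpt1 (1.43 ± 0.16 SE), Dll4 (1.12 ± 0.15 SE) and Tek (0.81 ± 0.09 SE) were higher ipsilaterally in 15 of 15 animals each. Pgf (1.74 ± 0.24 SE) was higher in 14 of 15, and Apln (0.58 ± 0.20 SE, adjusted p = 0.0103) in 13 of 15. Flt1 did not pass (-0.01 ± 0.05 SE, adjusted p = 0.904; higher ipsilaterally in 9 of 15). Aplnr was higher ipsilaterally in 15 of 15 animals, by 15.2 to 62.2 CPM and 5.24 ± 0.22 SE on the log2 scale, given without a p-value for the reason above. The side difference of Apln at 24 h was made up of a lower contralateral level and an ipsilateral level that did not pass against naive.

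**Figure D4:**
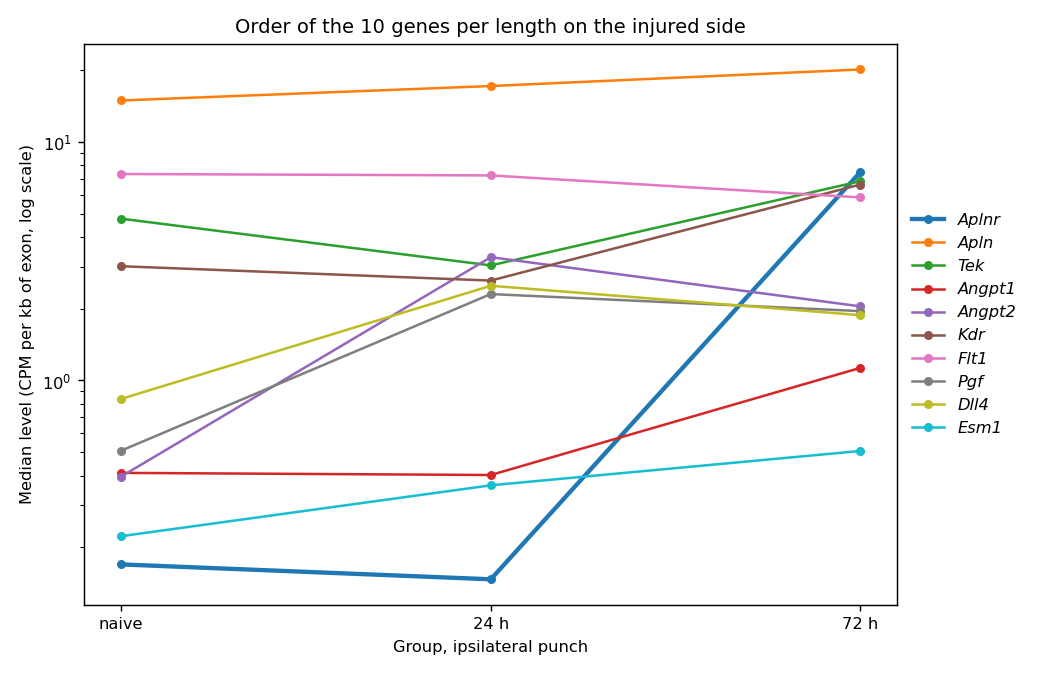
Median ipsilateral level of each gene in CPM per kilobase of exon (y axis, log scale) in naive, 24 h and 72 h punches (x axis). Apln is first at all 3 times, and Aplnr stands last in naive mice (0.170) and at 24 h (0.147) and second at 72 h (7.46).

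Per kilobase of exon, the order of the genes changed with time. The length used counts every exon base of all transcripts of a gene, 13504 for Flt1 and 3149 for Apln. Ranks between genes depend on that length. In CPM the naive ipsilateral median of Flt1 (98.8) was above that of Apln (46.8). In naive ipsilateral punches the medians were 14.9 CPM per kb for Apln, 7.32 for Flt1, 4.76 for Tek, 3.01 for Kdr and 0.837 for Dll4. Pgf (0.509), Angpt1 (0.410), Angpt2 (0.396), Esm1 (0.223) and Aplnr (0.170) followed, each overlapping its neighbour in range. Apln did not overlap Flt1, and Kdr did not overlap Dll4, so 3 tiers stood apart in naive cortex on this scale. At 24 h Angpt2 followed Apln and Flt1 with 3.28 CPM per kb, and it overlapped Tek (3.03) and Kdr (2.62). Aplnr was still last, at 0.147. At 72 h Aplnr (7.46) stood second after Apln (20.0), which it overlapped, and before Tek (6.83), Kdr (6.61) and Flt1 (5.84), and the ranges of these 4 receptors overlapped.

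Endothelial markers moved on the injured side as well. Of 9 markers, 7 rose at 24 h and 9 at 72 h, with median log2 fold changes of 0.54 and 1.42. Their summed level had a lowest, median and highest value of 166.7, 203.1 and 233.7 CPM in naive ipsilateral punches, 235.8, 269.7 and 349.5 CPM at 24 h, and 374.6, 520.5 and 722.8 CPM at 72 h. The highest of the 72 h sums was that of LF3. Every marker was detected in every ipsilateral punch. Cldn5, a tight junction protein of the barrier, rose by 1.71 ± 0.15 SE at 72 h (adjusted p = 2.18e-12), and Cdh5, the endothelial cadherin, by 1.61 ± 0.16 SE (adjusted p = 1.06e-10).

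Per 100 CPM of summed endothelial markers, several changes seen in CPM were smaller or ran the other way; these values are a description without a test. Aplnr had a median of 0.282 in naive punches, 0.204 at 24 h and 5.40 at 72 h, and its lowest value at 72 h (3.31) was above the highest of both other groups. Angpt2 had 0.718, 4.53 and 1.53 in the same order, Pgf 0.726, 2.55 and 1.15, and Dll4 1.56, 3.60 and 1.35. Kdr stood at 13.5, 9.35 and 11.1, and Tek at 11.3, 5.30 and 6.20. Flt1 stood at 47.9 in naive punches, 33.8 at 24 h and 15.6 at 72 h. None of its 72 h values (4.78 to 20.2) reached the lowest naive value of 35.3. LF3, with the highest marker sum, had the lowest 72 h value of Flt1, and also of Kdr (3.90) and Tek (2.38). Angpt1 stood at 1.03, 0.715 and 1.23 with overlapping ranges, Esm1 at 0.248, 0.294 and 0.193, and Apln at 23.1, 19.4 and 11.3. Relative to these markers, Kdr, Tek, Dll4 and Esm1 thus had medians at 72 h under those of naive mice although their medians in CPM were higher, and so did Apln. The naive and 72 h ranges of Kdr, Tek, Dll4 and Esm1 overlapped on this scale. The summed markers did not move alike: from naive to 24 h the median went from 24.2 to 50.3 CPM for Pecam1 and from 41.7 to 40.3 CPM for Cldn5. What part the number of endothelial cells had in any of these values was not tested.

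**Figure D5:**
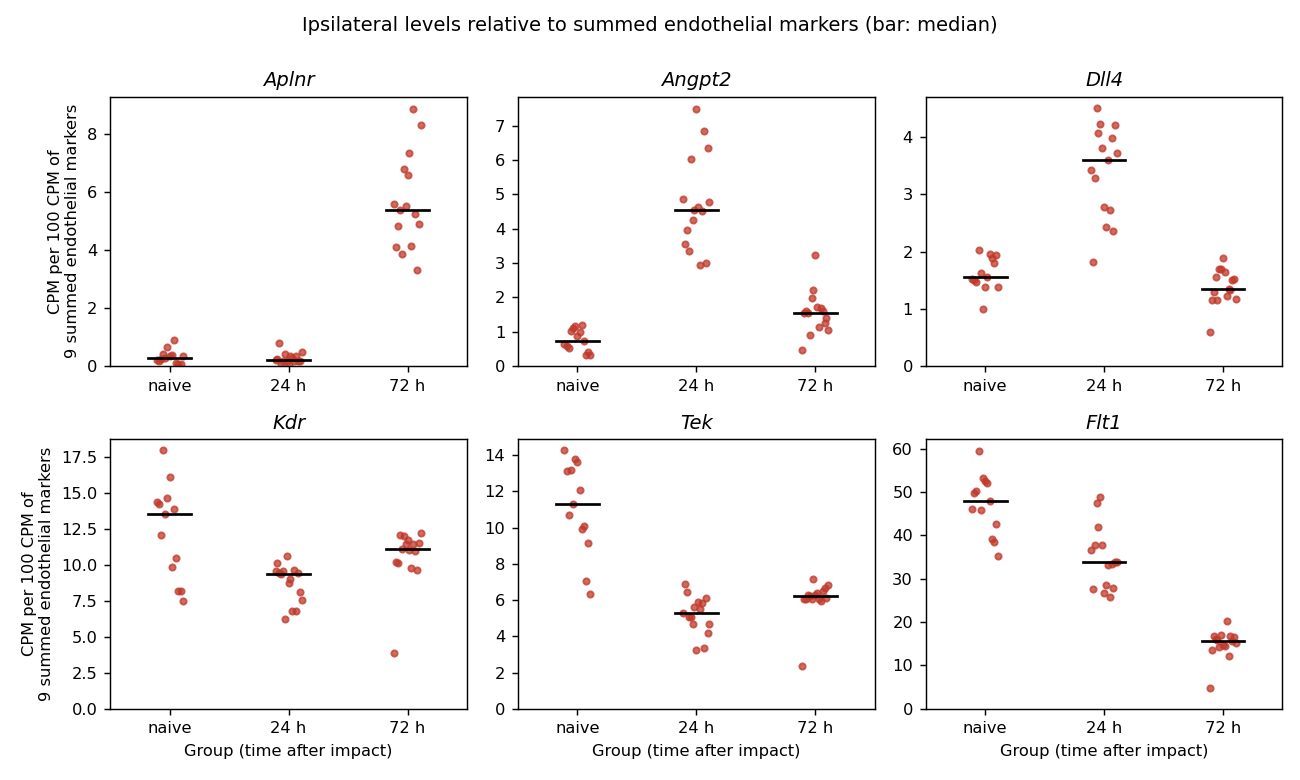
Ipsilateral level of 6 of the genes in CPM per 100 CPM of 9 summed endothelial markers (y axis, linear, from 0) in naive, 24 h and 72 h punches (x axis), with 1 point per punch and black bars at the medians. Aplnr stands apart at 72 h (median 5.40), Angpt2 and Dll4 peak at 24 h, and Flt1 is lowest at 72 h (median 15.6).

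Markers of other cell types moved beside these genes. Of 9 monocyte and macrophage markers, 8 rose at 24 h and 9 at 72 h, and their summed median was 25.4 CPM in naive punches, 195.0 CPM at 24 h and 574.4 CPM at 72 h. Of 9 pericyte and smooth muscle markers, none rose and 5 fell at 24 h, and 3 rose and 1 fell at 72 h. Their summed median was 299.6 CPM in naive punches, 203.0 CPM at 24 h and 377.9 CPM at 72 h. Tek and the summed fibroblast and astrocyte medians given next were also lowest at 24 h and highest at 72 h. Meningeal fibroblast markers had a summed median of 85.3 CPM in naive punches, 51.1 CPM at 24 h and 236.6 CPM at 72 h, with single punches up to 1231 CPM. Of these 8 markers, 2 rose and 4 fell at 24 h, and 4 rose and 3 fell at 72 h. The collagen gene Col1a1 rose at 72 h (2.74 ± 0.69 SE, adjusted p = 0.00116), while Fmod, which encodes fibromodulin, fell (-2.32 ± 0.51 SE, adjusted p = 0.000245). The neuron markers summed to medians of 6579, 6225 and 4655 CPM, and the astrocyte markers to 4868, 4038 and 5347 CPM, in the same order of groups. Of 7 neuron markers, none rose and 3 fell at 24 h, and 1 rose and 3 fell at 72 h. Of 7 astrocyte markers, 2 rose and 4 fell at 24 h, and 3 rose and 1 fell at 72 h. Every marker of these lists was detected in every ipsilateral punch, except that Arg1 was undetected in 2 naive punches and Igf2 in 1 punch at 72 h. Their part in the values of the 10 genes was not tested.

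Partners of the VEGF receptors changed unevenly. Of 7 VEGF ligands and coreceptors, 3 rose and 2 fell at both times, with a median log2 fold change of 0.46 at 24 h and 0.05 at 72 h. The coreceptors Nrp2 (1.52 ± 0.15 SE, adjusted p = 1.1e-10) and Nrp1 (1.29 ± 0.17 SE, adjusted p = 2.15e-08) rose at 72 h, as did Flt4, the receptor for VEGF-C (1.30 ± 0.17 SE, adjusted p = 2.64e-08). Vegfb fell at 72 h (-0.49 ± 0.10 SE, adjusted p = 0.000175). The principal ligand Vegfa did not pass at 24 h (0.25 ± 0.11 SE, adjusted p = 0.0577) and fell at 72 h (-0.52 ± 0.17 SE, adjusted p = 0.0096). Its ipsilateral medians were 75.9 CPM in naive punches, 86.8 CPM at 24 h and 55.0 CPM at 72 h.

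Partners of Tie2 and apelin had 2 of 5 tested genes higher and 3 lower at 24 h, and 4 higher at 72 h. Tie1, the orphan sister receptor of Tie2, fell at 24 h (-0.43 ± 0.14 SE, adjusted p = 0.0087) and rose at 72 h (1.01 ± 0.20 SE, adjusted p = 5.46e-05), and Ptprb, the phosphatase that acts on Tie2, went the same way (-0.58 ± 0.10 SE, adjusted p = 1.27e-05, and 0.51 ± 0.15 SE, adjusted p = 0.0058). Angptl4, an angiopoietin-like lipase inhibitor, rose at both times (2.61 ± 0.23 SE, adjusted p = 1.47e-12, and 2.18 ± 0.31 SE, adjusted p = 2.38e-07). Apela, the second apelin receptor ligand, had no read in any ipsilateral punch, and neither it nor Angpt4 passed the filter. Tek, Tie1 and Ptprb were thus all lower at 24 h and higher at 72 h than in naive mice.

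Of 12 tip cell genes other than the members, 10 rose and 2 fell at 24 h, and 8 rose and 2 fell at 72 h, with median log2 fold changes of 0.64 and 0.72. Cxcr4, a chemokine receptor that leukocytes also carry, rose by 3.75 ± 0.31 SE at 24 h (adjusted p = 4.51e-13) and 4.47 ± 0.42 SE at 72 h (adjusted p = 9.99e-12). Igfbp3, an IGF-binding protein, rose by 2.65 ± 0.20 SE at 24 h and 2.97 ± 0.27 SE at 72 h, while Cd34, a sialomucin of vessels, fell by 1.44 ± 0.09 SE at 24 h (log2, adjusted p = 3.45e-17). Adm, which encodes adrenomedullin, rose by 2.48 ± 0.23 SE at 24 h. Of 11 Notch genes, 4 rose and 4 fell at 24 h and 5 rose and 1 fell at 72 h. The receptors Notch1 (0.51 ± 0.08 SE, adjusted p = 7.73e-07) and Notch4 (0.84 ± 0.13 SE, adjusted p = 1.93e-06) rose at 24 h, as did the target Hes1 (0.86 ± 0.15 SE, adjusted p = 1.04e-05). The targets Heyl (-0.74 ± 0.15 SE) and Nrarp (-0.78 ± 0.19 SE) fell. Beside the rise of Dll4, the Notch targets thus moved in both directions.

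Arterial and venous genes had 2 of 9 higher and 1 lower at 24 h, and 4 higher and 1 lower at 72 h; Vwf, the clotting factor carrier of endothelium, rose by 2.10 ± 0.15 SE at 72 h (adjusted p = 6.15e-15). Of 10 hypoxia targets, 5 rose at 24 h and 4 rose and 1 fell at 72 h, with medians of 0.28 and 0.17. Hk2, a hexokinase of glycolysis, rose by 2.02 ± 0.15 SE at 24 h (adjusted p = 2.77e-14), and Car9, a carbonic anhydrase induced by low oxygen, by 3.33 ± 0.52 SE at 72 h (adjusted p = 1.01e-06). All 8 proliferation genes rose at both times, with medians of 2.62 at 24 h and 5.61 at 72 h. Their summed level stood at medians of 6.03 CPM in naive punches, 30.1 CPM at 24 h and 285.5 CPM at 72 h. Mki67, a marker of dividing cells of any type, rose by 6.36 ± 0.47 SE at 72 h (adjusted p = 1.81e-14). Bulk tissue does not say which cells carried these transcripts.

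Profiles most like those of 4 of the genes were ranked by the root mean square difference of mean log2 CPM over the 12 groups of sex, time and side, each profile centred on its own mean. For Aplnr the nearest of 19126 genes was Slc6a5, a glycine transporter, at 0.388, with ipsilateral means of 0.0685, 0.200 and 10.4 CPM in naive, 24 h and 72 h punches. The next 4 were Depdc1a (0.598), Aspm (0.636), Cdc20 (0.642) and Pif1 (0.658). Aspm and Cdc20 act in mitosis. The 72 h level that served to choose Aplnr shapes its profile, so genes that rose much at 72 h rank near it. The ranking therefore supports no link between Aplnr and these genes. For Angpt2 the nearest were Tnfsf14 (0.197), Ifi205 (0.258), Dhrs9 (0.259), Serpina3i (0.270) and Rsad2 (0.286). That they were higher at 24 h than at 72 h follows from ranking by this profile. Naive ipsilateral means of Tnfsf14, Ifi205, Dhrs9 and Serpina3i were near the floor, at 0.0046, 0, 0.041 and 0.0096 CPM. For Apln they were Kcng4 (0.179), Inf2 (0.188), Nfil3 (0.230), Dnd1 (0.238) and Popdc3 (0.243). For Esm1 they were Rnf213 (0.321), Gm4951 (0.345), Scimp (0.346), Steap1 (0.348) and Mir142hg (0.348).

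The study asked whether the response depends on sex. None of the 10 genes passed for females against males in naive mice, at 24 h or at 72 h (edgeR; 0, 0 and 1 at an unadjusted p under 0.05, and 0 with DESeq2 each time), beside 0.0366%, 0.0366% and 0.0314% of all genes. Of all genes, 0.0105% were higher in females at each time, and 0.0261% were lower in naive mice and at 24 h and 0.0209% at 72 h. The 1 was Esm1 at 72 h, with a median of 1.24 CPM in females and 0.776 CPM in males (1.20 ± 0.53 SE, unadjusted p = 0.0296, adjusted p = 0.839). Aplnr at 72 h had lowest, median and highest levels of 15.9, 28.8 and 63.6 CPM in 9 libraries labelled female, among them PF1 with its male transcripts, and 15.5, 24.9 and 50.9 CPM in 6 males (0.24 ± 0.30 SE, adjusted p = 0.928). Angpt2 at 24 h had a median of 12.1 CPM in 7 females and 13.1 CPM in 8 males (0.14 ± 0.28 SE, adjusted p = 1). No difference between the sexes in the change from naive passed for any of the 10 genes at either time (interaction term, adjusted p of 1 for each; 0 at an unadjusted p under 0.05 and 0 with DESeq2). The widest difference of this kind was that of Aplnr at 72 h, at 1.15 ± 0.61 SE. Without PF1 none of the 10 genes passed either, for the sexes or the interaction. A p that misses the threshold does not show that the sexes acted alike.

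Single animals stood at the edge of several genes at once. Among naive mice KF3 had the lowest ipsilateral level of 7 of the 10 genes. At 72 h LF3 had the lowest ipsilateral level of 7 of the 10 genes, and SF3 the highest of 5, namely Angpt2, Flt1, Pgf, Dll4 and Esm1. TF1 had the highest level of 3, Aplnr, Tek and Kdr. At 24 h QF1 had the highest ipsilateral level of 4, Apln, Angpt2, Pgf and Kdr. Naive punches of batch B were lower than those of batch A in several genes, with Kdr at a median of 17.4 CPM in batch B and 28.9 CPM in batch A. Batch C held no naive mouse, so only batch B gave 72 h values against naive within a batch. There Angpt2 (2.86, adjusted p = 0.000316), Angpt1 (2.45, adjusted p = 0.00272), Kdr (1.49, adjusted p = 0.000117), Tek (0.76, adjusted p = 0.0152) and Dll4 passed, and Pgf did not.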

How the data were processed

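PolyA RNA of cortical punches was sequenced by the submitters. The submitters' processing notes name the aligner HISAT2 2.0.5 and the genome mm10. How reads were assigned to genes (program, annotation, strand) is not stated in the labels used. The deposited table holds raw counts per gene for 88 libraries, 87 of them assigned to groups by the labels. Symbols, positions and exon lengths came from GENCODE M21, and 0.0615% of counts fell on genes without a symbol. The 10 genes, the gene lists and the tests were chosen with earlier results of these data known, so no list here is independent support. All 10 genes are named in each comparison, and from each list up to 4 genes with the smallest p. Counts were tested in R 4.3.3 with edgeR 4.0.16 (filterByExpr, TMM, quasi-likelihood F test, two-sided, Benjamini-Hochberg adjusted over all genes tested), with sex-by-time groups and batch as terms in each hemisphere. A reported change is the mean of the female and male log2 fold changes. Side comparisons used the animal as a block, since the labels name the animal of each punch. Alternatives were DESeq2 1.42.0, RLE factors, no count filter, no batch term, no block, single batches, each sex alone, and animals PF1, LF3 or QF1 left out. The scripts were tested on simulated data. Each animal is 1 replicate; p-values measure the spread between animals. Precision follows depth, which is lowest for Esm1 and for Aplnr outside the injured 72 h punches.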

Additional observations from a re-analysis of the deposited data

Results flagged for a closer look

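In 120 groups of 6 to 9 punches (each gene by sex, time and side), 18 had 1 punch apart from the rest by Dixon's criterion at the 95% level, or 15%, where chance gives about 1 in 20. LF3 accounted for 7 of them. In the 72 h female ipsilateral group it was low for Flt1 (34.566 CPM, the others 74.767 to 95.073). In the 72 h female contralateral group it was high for Apln (119.82 CPM) and Pgf (4.0553 CPM) and low for Dll4 (1.8433 CPM), Flt1 (45.592 CPM), Kdr (9.2166 CPM) and Tek (3.318 CPM). QF1, a 24 h female, held the highest ipsilateral Apln of its group (134.7 CPM) and the lowest contralateral one (4.1818 CPM).

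The others touched 1 gene each. At 72 h they were Angpt2 in SF3 (ipsilateral female, high, 20.733 CPM), Angpt1 in LM2 (contralateral male, low, 0.72124 CPM) and Apln in PM2 (contralateral male, low, 22.484 CPM). At 24 h they were Flt1 in FM3 (ipsilateral male, high, 133.8 CPM), Angpt2 in RF1 (contralateral female, high, 2.2886 CPM) and Angpt2 in FM2 (contralateral male, high, 4.0734 CPM). In naive mice they were Angpt1 in EM3 (right punch, male, high, 6.267 CPM), Dll4 in CM1 (left punch, male, low, 0.21771 CPM) and Tek in KF3 (left punch, female, low, 11.765 CPM).

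No comparison used the ipsilateral library of PM1. It held 23.153 CPM of Aplnr, 48.84 CPM of Kdr, 32.311 CPM of Tek, 6.681 CPM of Angpt2, 6.393 CPM of Dll4, 4.8955 CPM of Pgf and 0.92151 CPM of Esm1. Each of these was above every naive ipsilateral punch, Esm1 narrowly (highest naive 0.886 CPM) and on 16 reads. Apln (48.1 CPM), Angpt1 (5.59 CPM) and Flt1 (66.1 CPM) were not. The share of all genes above every naive punch in this library was not counted, so these values support nothing about the set.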

How the results depend on the processing

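Of the gene values under alternatives, 786 were counted as unchanged, 12 lost a call, 16 gained one and 45 moved without a call. Unchanged means the same direction and side of the threshold. For the untested ipsilateral contrast of 72 h with 24 h it means closer to the main value than the standard deviation within groups. There Esm1 ran from -1.13 to 0.71 and Apln from -0.24 to 0.055, so direction was not always kept. Calls not named beside their genes were these. Lost were Pgf ipsilaterally at 72 h in males (1.11, adjusted p = 0.0575), Apln between sides at 72 h in males (0.53, adjusted p = 0.157), contralateral Apln at 24 h against naive in females (adjusted p = 0.559) and males (0.121), and at 72 h against 24 h in males (0.514) and batch B (0.315). Gained were Kdr contralaterally at 24 h without LF3 (-0.29, adjusted p = 0.04), Flt1 ipsilaterally at 72 h without the batch term (-0.26, adjusted p = 0.018), and Flt1 between sides at 24 h (0.13 to 0.20) with DESeq2, RLE factors, males alone, without LF3 and without QF1. The settings without LF3 and without QF1 were chosen after seeing the data. Without the replicate block the side comparisons called the same numbers of the 10 genes (0, 7 and 9) and 8345 genes in all at 24 h in place of 9517. Contralateral counts were the least stable. At 24 h against naive, all genes called were 388, but 621 with DESeq2, 202 in batch A, 0 in batch B, 17 in females, 185 in males, 238 without the filter and 1190 without LF3; of the 9 genes 1 was called, but 3 in batch A, 2 without LF3, and 0 in batch B and in either sex. At 72 h against 24 h they were 1698, but 1025 with DESeq2, 3 in batch B, 14 in males, 699 without the batch term, 45 without LF3, 3041 without PF1 and 1045 without QF1; the 1 gene called became 0 in batch B, in males and without LF3. At 72 h against naive they were 48, but 84 with DESeq2, 3 in batch B, 570 in females, 1 in males, 1456 without the batch term, 17 without LF3 and 1253 without PF1; 1 of the 9 genes, Flt1 (-0.30, adjusted p = 0.00218), was called without the batch term. Elsewhere, 24 h against naive ipsilaterally called 8216 genes and 4297 in batch B. Females against males called 6 at 72 h and 1 without the batch term, and 7 in naive mice and 3 with DESeq2. The naive side comparison called 17 without the filter, and the interaction at 24 h 1 with DESeq2. Causes of these shifts were not tested. Depth limits Esm1 (0 to 14 reads per naive ipsilateral punch) and naive Aplnr (2 to 30 reads).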
